A study of Mus musculus with 6 samples.

Results

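Nuclear genes for the last 3 enzymes of the mitochondrial respiratory system were followed in mouse heart: complex III, complex IV (cytochrome c oxidase) and ATP synthase (complex V). Members are the rows of the deposited expression table whose symbol begins with Uqcr, with Cox and a digit from 4 to 8, or with Atp5; no pseudogene symbol had to be dropped. They number 43 of 24525 gene rows: 8 for complex III, 18 for complex IV and 17 for ATP synthase. The mitochondrially encoded subunits of these complexes are not analysed here. Nuclear subunit genes with other symbols are not members either, among them Cyc1 (complex III), Ndufa4 (complex IV) and 2010107E04Rik (ATP synthase). They are counted with the lists of related genes, and the sums by complex leave them out.

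RNA was sequenced from hearts of mice aged 3 to 6 months, in 3 libraries labelled WT (replicates 4, 5 and 6) and 3 labelled DKO (replicates 7, 8 and 9). WT is wild type; the labels name no further allele for it. The genotype named for DKO is Mbnl1-/-; Mbnl2cond/cond; Myh6-Cre+/-. That is a constitutive Mbnl1 null, with conditional Mbnl2 alleles recombined by Cre under the cardiomyocyte promoter of Myh6. MBNL proteins regulate splicing and are sequestered by repeat RNA in myotonic dystrophy. Other heart cells keep Mbnl2 but lack Mbnl1, and whether the WT animals carried Cre is not given in the sources used here. Replicate 7 is DKO by title and source name but WT by its genotype tag, and was kept in DKO.

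Complex III passes electrons from coenzyme Q to cytochrome c, and complex IV passes them from cytochrome c to oxygen. Both move protons across the inner membrane, and ATP synthase lets the protons flow back through its ring of c subunits to drive its catalytic head. The heart depends on this system for nearly all of its ATP. Complex IV exists in tissue versions: adult heart and skeletal muscle of mice use the isoforms Cox6a2, Cox7a1 and Cox8b of subunits VIa, VIIa and VIII, whereas other tissues use Cox6a1, Cox7a2 and Cox8a.

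Promoter windows of the muscle isoforms Cox7a1 and Cox8b and of their ubiquitous partners Cox7a2 and Cox8a are shown first. The promoter source has no window for the muscle isoform Cox6a2, so its pair is left out. Each sequence is the 250 bases before the RefSeq transcription start, 5′ to 3′ on the gene's strand (GRCm38.p6), with every CG dinucleotide in capitals. Cox7a1 is muscle type (chr7:30183921-30184170, plus strand), as is Cox8b (chr7:140900447-140900696, minus strand). Cox7a2 is ubiquitous (chr9:79759854-79760103, minus strand), as is Cox8a (chr19:7217617-7217866, minus strand). The windows of Cox7a1, Cox8b and Cox8a lie just outside the RefSeq gene, and that of Cox7a2 lies within the span of its longer transcripts.
Cox7a1: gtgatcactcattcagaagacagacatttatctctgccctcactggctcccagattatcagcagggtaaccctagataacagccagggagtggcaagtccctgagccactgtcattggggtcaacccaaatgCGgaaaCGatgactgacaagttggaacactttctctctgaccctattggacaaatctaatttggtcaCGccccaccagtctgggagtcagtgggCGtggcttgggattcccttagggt
Cox8b: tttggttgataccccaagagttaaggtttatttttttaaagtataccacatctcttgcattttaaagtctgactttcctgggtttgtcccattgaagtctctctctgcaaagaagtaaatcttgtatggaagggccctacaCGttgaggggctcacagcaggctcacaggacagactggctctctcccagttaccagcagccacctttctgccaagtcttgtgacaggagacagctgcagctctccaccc
Cox7a2: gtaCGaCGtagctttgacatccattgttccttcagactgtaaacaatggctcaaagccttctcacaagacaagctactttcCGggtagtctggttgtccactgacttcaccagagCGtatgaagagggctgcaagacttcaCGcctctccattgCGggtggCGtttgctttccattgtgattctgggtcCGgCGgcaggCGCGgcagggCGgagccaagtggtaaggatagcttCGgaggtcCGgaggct
Cox8a: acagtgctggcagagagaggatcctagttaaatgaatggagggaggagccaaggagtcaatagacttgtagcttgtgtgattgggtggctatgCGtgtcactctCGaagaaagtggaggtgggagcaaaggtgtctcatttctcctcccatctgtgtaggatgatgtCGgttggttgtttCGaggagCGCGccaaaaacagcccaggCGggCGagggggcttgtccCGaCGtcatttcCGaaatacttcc
The muscle windows hold 4 (Cox7a1) and 1 (Cox8b) CG dinucleotides, and the ubiquitous ones 14 (Cox7a2) and 11 (Cox8a). Of the 38 windows that RefSeq gives for 34 of the members, Cox8b and Cox7a1 have the fewest. The others hold 5 to 35, and the median is 14 over all 38. Cox7b and Uqcr10, which are not muscle isoforms, hold 5 each. The contrast of muscle and ubiquitous windows rests on the 4 genes shown. The median over all 32851 mouse windows is 6.

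Letters of factors tied to muscle or mitochondrial genes were searched for on both strands of these windows. CAGCTG, a myogenic E-box, lies 19 to 14 bases before the start of Cox8b. It is in 13.0% of all mouse windows and, among the members with a window, in 2 of 34 (Cox8b and Atp5b). The ETS and GABP letters CCGGAAG were in 8 of 34 members and 6.91% of all windows. Those of NRF1 were in 5 of 34 and 3.74%. AAGGTCA, which oestrogen-related receptors bind, was in 2 of 34 (4.08% of all windows), AAGATGGC of YY1 in 2 of 34 (1.56%), and MEF2 letters in 0 of 34 (1.69%). None of the 6 was found in the windows of Cox7a1, Cox7a2 or Cox8a. A member with several windows counted once if any of them matched, whereas the mouse shares are per window, so the units differ. A match describes the letters of the window and not a bound site.

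Expression is in TPM, a transcript abundance corrected for transcript length and library total, so that levels can be set side by side between genes. Each library has 14084 to 14623 genes that reach 1 TPM, and its depth is unknown because the unit keeps no read counts. A mean ± SD is over n = 3 libraries. Log2 differences, with SE, subtract WT from DKO after taking log2(TPM + 1). A gene was called when limma's moderated test gave a Benjamini-Hochberg (BH) adjusted p under 0.05 over all 14541 genes tested. The labels do not state whether each library is a different animal, and the p-values cover only the spread among these 6. Of the targeted genes, Mbnl1 was at 145 to 161 TPM in WT and 102 to 108 TPM in DKO, and Mbnl2 at 149 to 189 and 227 to 245 TPM. Replicate 7, whose genotype tag reads WT, had 102 TPM of Mbnl1 and 227 TPM of Mbnl2, outside the WT range for both. A gene's total can hold transcript regions that a deletion spares and, in the case of Mbnl2, RNA of cells that lack Cre, so these values do not check the deletion. Y-linked transcripts summed to 163 TPM or more in all 3 WT libraries and in DKO 9, but to under 1 TPM in DKO 7 and DKO 8, where Xist was at 152 and 174 TPM. Sex therefore differs between the groups.

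Messages for these enzymes were abundant, and a few of them were lower in DKO. The 43 genes took 6.67%, 6.45% and 6.28% of all TPM in WT 4, 5 and 6, and 5.88%, 5.74% and 5.93% in DKO 7, 8 and 9. Of the 41 genes tested, 5 were called lower (Cox7a1, Cox8b, Cox7c, Uqcrc1 and Atp5e) and 1 higher (Atp5sl), against 4.22% lower and 6.51% higher among all genes tested. The all-gene counts of 614 lower and 946 higher became 845 and 906 with median-ratio scaling and 817 and 880 with quantile scaling. The 5 are 12.2% of the 41, near the 13.6% called lower among the 1325 genes with a mean of 100 TPM or more, a share close to that of other abundant genes. All WT libraries but only DKO 9 of DKO have Y-linked transcripts, so a limma fit with a term for them sets DKO 9 alone against WT, with the spread taken from the other libraries. That fit called 0 of the 41 (6 lower and 1 higher at an unadjusted p under 0.05; 92 calls over all genes). In it Cox7a1 differed by -0.52 (SE 0.12; limma, BH adjusted p = 0.139), close in size to the value with all libraries. With replicate 7 counted as WT, limma also called 0 of the 41 (1 lower and 1 higher at an unadjusted p under 0.05; 1 call over all genes). Each of the 41 had at least 1 TPM in all 6 libraries. Cox7b2 and Cox8c, testis isoforms, were not tested: Cox7b2 lay between 0 and 2.20 TPM, and Cox8c was listed at 0 in all 6 libraries.

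The DKO values lay wholly below the WT values for 16 of the 41 genes, where 13.8% of all genes tested and 25.7% of those at 100 TPM or more did so. They lay wholly above for 2, Uqcrh and Atp5sl (19.1% and 27.4%). The log2 difference was below 0 for 29 of 41, with a median of -0.09 against 0.03 for all genes tested. This lean depends on scaling: it was 31 of 41 with median-ratio scaling but 19 of 41, with a median of 0.01, with quantile scaling. WT 4 had the highest WT value for 26 of 41 genes. It also had the most atrial light chain Myl7, 932 TPM, where the other libraries had 39.4 to 320 TPM. The part of atrial tissue in the results was not tested.

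**Figure D1:**
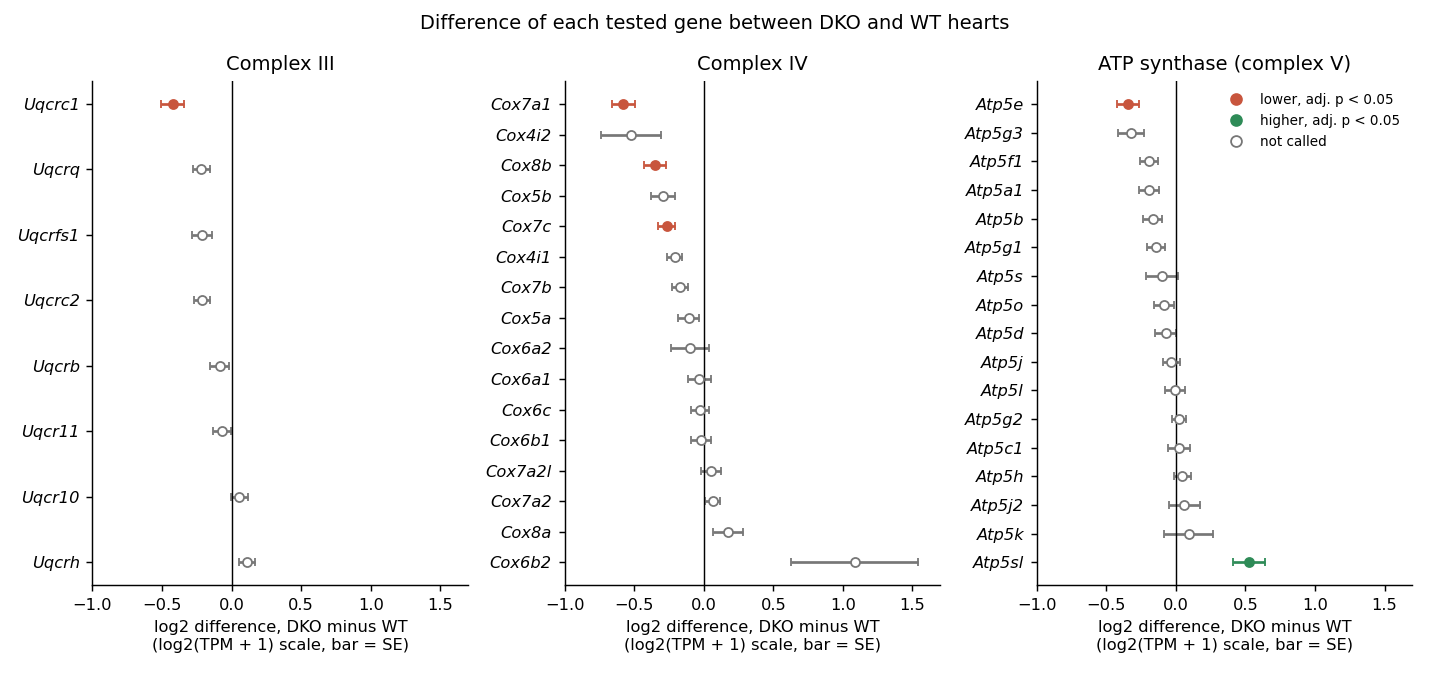
Log2 difference of each of the 41 tested genes between DKO and WT (x axis, log2(TPM + 1) scale; bars are the SE), in 3 panels by complex. Filled points passed the threshold: 5 lower, led by Cox7a1 at -0.58, and 1 higher, Atp5sl at 0.52; open points did not.

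The largest fall among the called genes was in a muscle isoform of complex IV. Of its 3 muscle isoforms 2 were called lower, with a median log2 difference of -0.35, and of their 3 ubiquitous partners 0 were (limma; 0 also at an unadjusted p under 0.05), with a median of 0.07. Subunit VIIa sits at the edge of the enzyme, and its muscle form Cox7a1 (chromosome 7, 30184171 to 30186030) had the highest mean TPM of complex IV in WT. Cox7a1 was at 4570, 3887 and 3997 TPM in WT 4, 5 and 6 and at 2747, 2696 and 2887 TPM in DKO 7, 8 and 9. The lowest WT library was thus well above the highest DKO library, which is DKO 9, the DKO library with Y-linked transcripts. Cox7a1 fell by 0.58 on the log2 scale (SE 0.08; limma, BH adjusted p = 0.00957), to 0.669 of the WT mean. It was called in each of the 6 fits that left out 1 library (limma, BH adjusted p = 0.0202 to 0.038), among them the fit without WT 4 (0.0202), but not with quantile scaling (0.0741). In DKO its mean, 2777 ± 99.2 TPM, no longer stood apart from that of Cox6c, 2744 ± 140 TPM.

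Cox7a2, the form of subunit VIIa found in most tissues, was at 689, 649 and 640 TPM in WT and at 691, 688 and 690 TPM in DKO. The DKO libraries sat together at the top of the WT range (log2 difference 0.07, SE 0.06; limma, BH adjusted p = 0.509). Cox7a2l, a relative that joins complexes III and IV into supercomplexes, was at 378, 327 and 358 TPM in WT; in DKO it was at 363, 382 and 354 TPM (limma, BH adjusted p = 0.707).

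Subunit VIII, a single-helix membrane subunit, showed the same arrangement. The muscle form Cox8b (chromosome 7, 140898942 to 140900446) was at 2774, 2333 and 2602 TPM in WT and at 1971, 2038 and 2029 TPM in DKO. No DKO library reached the lowest WT library, and Cox8b fell by 0.35 (SE 0.08; limma, BH adjusted p = 0.037). Leaving out 1 library ended the Cox8b call in 5 of 6 fits, with adjusted p up to 0.1; it held only without WT 5. The ubiquitous Cox8a was at 374, 284 and 349 TPM in WT and at 367, 402 and 363 TPM in DKO, overlapping groups (log2 difference 0.17, SE 0.11; limma, BH adjusted p = 0.36).

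Subunit VIa, whose muscle form is tied to regulation of the enzyme by ADP, gave other values. The muscle form Cox6a2 was at 2426, 2279 and 2074 TPM in WT and at 2567, 1986 and 1831 TPM in DKO. DKO 7 had the highest Cox6a2 of all 6 libraries and DKO 9 the lowest, so the groups overlapped (log2 difference -0.10, SE 0.13; limma, BH adjusted p = 0.693). That overlap rests on DKO 7, since the other DKO values, 1986 and 1831 TPM, lay below all WT values. Without DKO 7 the log2 difference of Cox6a2 was -0.24 (SE 0.09), not called (limma, BH adjusted p = 0.187). In the libraries with Y-linked transcripts alone, where DKO 9 is the only DKO library, it was -0.30. The ubiquitous Cox6a1 was at 206, 178 and 201 TPM in WT, and 202, 191 and 180 TPM in DKO lay in the same range (limma, BH adjusted p = 0.848).

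**Figure D2:**
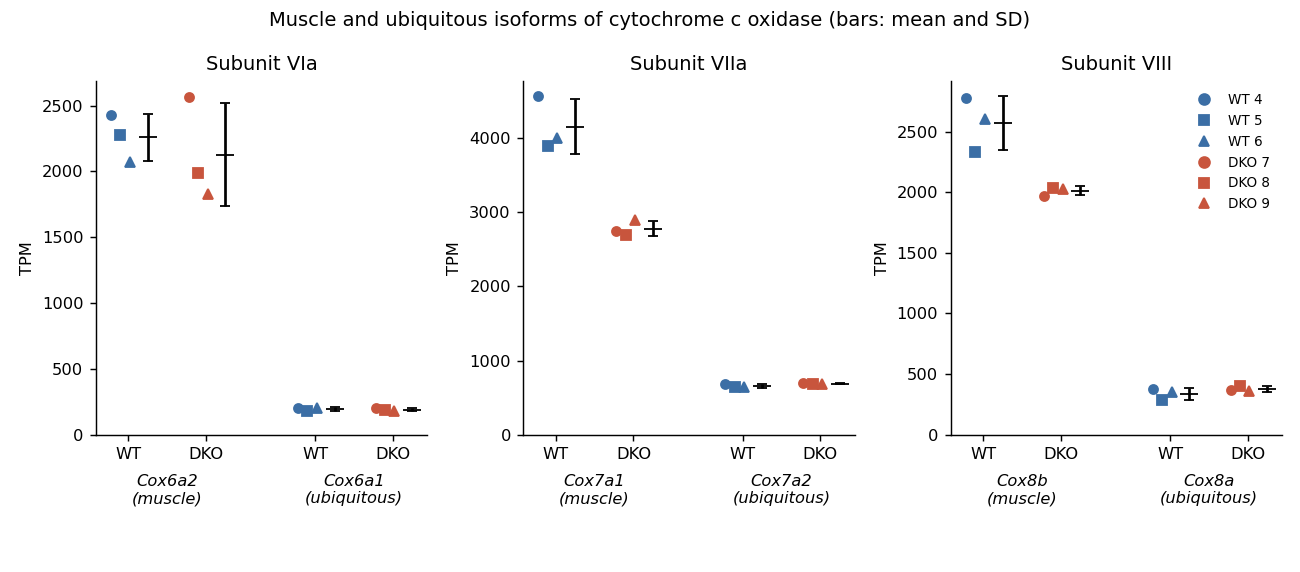
TPM (y axis, from 0) of the muscle and ubiquitous isoforms of subunits VIa, VIIa and VIII in each library; black marks are mean and SD of 3 libraries. DKO points lie below all WT points for Cox7a1 and Cox8b, and overlap WT for Cox6a2 and the ubiquitous isoforms.

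The ratio of 2 isoforms within a library does not change when the whole library is multiplied by 1 factor, though it can change with quantile scaling. Cox7a1 was 6.63, 5.99 and 6.24 times Cox7a2 in WT 4, 5 and 6 and 3.98, 3.92 and 4.18 times in DKO 7, 8 and 9. Its share of the pair went from 86.3% ± 0.605 to 80.1% ± 0.544. The log2 ratio differed by -0.64 (SE 0.05). Cox8b was 7.42, 8.20 and 7.45 times Cox8a in WT and 5.36, 5.07 and 5.59 times in DKO, a difference of -0.52 (SE 0.06). Its share of the pair went from 88.5% ± 0.574 to 84.2% ± 0.653. In both pairs every DKO library, DKO 9 included, had a lower ratio than every WT library, and the groups lay several SD apart. With quantile scaling, tried after the data were seen, the differences were -0.46 and -0.38, and the groups still did not overlap.

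Cox6a2 was 11.8, 12.8 and 10.3 times Cox6a1 in WT and 12.7, 10.4 and 10.2 times in DKO, with a log2 difference of -0.07 (SE 0.14) and overlapping groups. The fourth pair joins Cox4i2, a subunit IV isoform best known from lung and from low oxygen, with Cox4i1. Its log2 ratio differed by -0.34 (SE 0.28), and Cox4i2 made up only 0.439% to 0.840% of the pair in any library. Over the 4 pairs, the exact two-sided permutation p was 0.1 for Cox7a1 over Cox7a2 and for Cox8b over Cox8a, 0.7 for Cox6a2 over Cox6a1 and 0.3 for Cox4i2 over Cox4i1. After BH adjustment over the 4 these were 0.2, 0.2, 0.7 and 0.4. With 3 libraries against 3, 0.1 is the smallest value that this test can give, so it cannot pass 0.05.

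Whether the pairs differ from each other was tested on the ratio of the ratios. The log2 ratio of the Cox6a2 pair to the Cox7a1 pair was higher in DKO by 0.57 (SE 0.16), and that of the Cox6a2 pair to the Cox8b pair by 0.46 (SE 0.13), with DKO and WT not overlapping in either case (exact permutation p = 0.1 each, BH adjusted 0.15 over 3). The Cox7a1 and Cox8b pairs differed by -0.12 (SE 0.09; exact permutation p = 0.4, BH adjusted 0.4), which does not show that they changed alike.

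**Figure D3:**
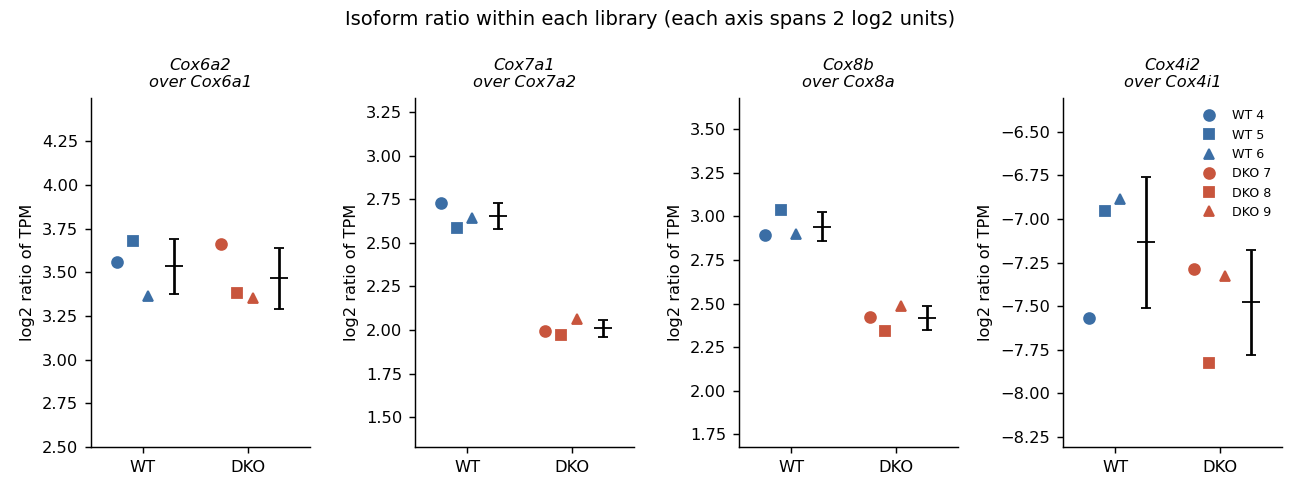
Log2 ratio of 2 isoforms in each library (y axis, each panel spanning the same range of 2 log2 units); points are libraries, black marks mean and SD. The WT and DKO groups are apart for Cox7a1 over Cox7a2 (mean 2.65 and 2.01) and Cox8b over Cox8a (2.94 and 2.42), and overlap in the other panels.

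Both isoforms together, subunit VIIa messages summed to 5259, 4536 and 4637 TPM in WT and 3438, 3384 and 3577 TPM in DKO, a change of -27.9% in the mean. The rise in mean Cox7a2, 30.1 TPM, is small beside the fall of Cox7a1, 1374 TPM. For subunit VIII the sum went from 2906 ± 268 to 2390 ± 50.9 TPM, and for subunit VIa from 2455 ± 179 to 2319 ± 399 TPM.

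Among the complex IV subunits without a muscle form, Cox7c (chromosome 13, 86044798 to 86046795), a small membrane subunit, was the only gene called. It was at 3096, 3182 and 2974 TPM in WT and at 2598, 2496 and 2590 TPM in DKO, without overlap, and fell by 0.27 (SE 0.06; limma, BH adjusted p = 0.0379). The Cox7c call was lost in each of the 6 fits that left out 1 library (0.0704 to 0.11). The gene also shares 25.2% of its transcript 31-base words with 2 other rows of the table, Gm10012 and Gm12338. Gm10012 was at 5.28 to 11.02 TPM; Gm12338 was listed at 0 in 5 libraries and at 126 TPM in DKO 9. How the authors' counting divided reads among these rows is not known, so the level of Cox7c is uncertain.

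Cox4i1, the subunit IV form of most tissues, was at 2954, 2889 and 2870 TPM in WT and at 2554, 2483 and 2498 TPM in DKO. The groups did not overlap and the spread was small, but Cox4i1 missed the threshold (log2 difference -0.21, SE 0.06; limma, BH adjusted p = 0.0609). Cox4i2 was at 15.6, 23.3 and 24.3 TPM in WT, and its DKO values of 16.4, 10.96 and 15.5 TPM overlapped these (limma, BH adjusted p = 0.176). Cox5b, a matrix-side zinc-binding subunit, and Cox7b also had DKO values wholly below WT, with log2 differences of -0.29 and -0.17 (limma, BH adjusted p = 0.0792 and 0.11). Cox5a and Cox6c overlapped between the groups.

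Subunit VIb faces the space between the membranes and helps to hold 2 enzymes together as a dimer. Cox6b1, its somatic form, was at 2699, 2361 and 2509 TPM in WT and at 2484, 2421 and 2566 TPM in DKO, within the WT range (limma, BH adjusted p = 0.91). The testis form Cox6b2 was near the floor, at 1.05, 3.71 and 6.44 TPM in WT and 7.77, 10.004 and 6.11 TPM in DKO. Its log2 difference of 1.09 (SE 0.46) was not called (limma, BH adjusted p = 0.184), and DKO 9 lay within the WT range.

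Complex III carries 2 core proteins, which face the matrix and take no part in electron transfer, the catalytic Rieske iron-sulfur protein and cytochromes, and several small subunits. Core protein 1, Uqcrc1 (chromosome 9, 108936648 to 108949641), was at 1249, 1244 and 1193 TPM in WT and at 818, 976 and 963 TPM in DKO. DKO 7 was the lowest, and no DKO library came near the WT range. Uqcrc1 fell by 0.42 (SE 0.08; limma, BH adjusted p = 0.0241). It was not called without WT 4, WT 5 or WT 6 (limma, BH adjusted p = 0.0664, 0.0664 and 0.059).

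The genes of core protein 2 and of the Rieske protein had DKO values wholly below WT as well. Core protein 2, Uqcrc2, went from 949 ± 17.6 to 820.1 ± 34.1 TPM (limma, BH adjusted p = 0.0648). The Rieske protein Uqcrfs1 went from 995 ± 21.2 to 860.4 ± 66.5 TPM (limma, BH adjusted p = 0.111). Neither passed the threshold. Of the 5 small subunits, only Uqcrq was wholly below WT (430 ± 17.5 to 369 ± 11.02 TPM; limma, BH adjusted p = 0.0621). The hinge protein Uqcrh, which assists the docking of cytochrome c1 with cytochrome c, was wholly above, at 1435, 1337 and 1349 TPM in WT and 1494, 1436 and 1523 TPM in DKO. The highest WT value of Uqcrh lay just under the lowest DKO value, and the difference of 0.11 (SE 0.06) was not called (limma, BH adjusted p = 0.287). Uqcrb, the most abundant complex III message on average, was at 1808, 1798 and 1704 TPM in WT and at 1754, 1556 and 1704 TPM in DKO, which overlap (limma, BH adjusted p = 0.489).

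In ATP synthase, the matrix head of alpha and beta subunits makes ATP around the turning gamma, delta and epsilon subunits. Epsilon, Atp5e (chromosome 2, 174461075 to 174464101), was at 1904, 1802 and 1706 TPM in WT and at 1334, 1388 and 1551 TPM in DKO. It fell by 0.34 (SE 0.08; limma, BH adjusted p = 0.0415), a call that held only without DKO 9 among the 6 fits that left out 1 library; in the others adjusted p was up to 0.116. DKO 9 had the DKO value closest to WT.

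The catalytic beta subunit Atp5b was the most abundant of all these messages, at 4834, 5079 and 4740 TPM in WT and at 4153, 4385 and 4531 TPM in DKO. The groups did not overlap, yet the difference of -0.17 (SE 0.07) was not called (limma, BH adjusted p = 0.179), and with quantile scaling it was 0.14. Alpha, Atp5a1, went from 3049 ± 140 to 2672 ± 158 TPM (limma, BH adjusted p = 0.15), also without overlap. Gamma, Atp5c1 (1254 ± 95.6 and 1273 ± 69.4 TPM), and delta, Atp5d (848 ± 57.2 and 807 ± 49.1 TPM), overlapped.

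The rotating ring is built of c subunits that 3 genes encode, and in all 3 the mature protein is the same. Atp5g3, the most used of them here, was at 2659, 2792 and 2522 TPM in WT and at 1898, 2178 and 2318 TPM in DKO. All DKO values were below WT, but the difference of -0.32 (SE 0.09) missed the threshold (limma, BH adjusted p = 0.0692). Atp5g1 was at 1913, 1732 and 1756 TPM in WT and at 1595, 1599 and 1696 TPM in DKO, also without overlap (limma, BH adjusted p = 0.224). Atp5g2 was at 663, 649 and 655 TPM in WT and at 655, 685 and 658 TPM in DKO, with overlap (limma, BH adjusted p = 0.824). The share of Atp5g3 in the sum of the 3 was 50.8%, 54.0% and 51.1% in WT and 45.8%, 48.8% and 49.6% in DKO. All 3 genes together went from 5114 ± 159 to 4428 ± 264 TPM.

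No gene of the stalk that holds the head still, or of the membrane subunits beside the ring, was called. Of the 4 stalk genes only Atp5f1 (subunit b) was wholly below WT, with a log2 difference of -0.19 like that of Atp5a1, at 857 ± 48.6 and 750 ± 28.9 TPM (limma, BH adjusted p = 0.118). Atp5h, Atp5j and Atp5o overlapped, with log2 differences of 0.05, -0.03 and -0.09. The 3 membrane subunits e, f and g, which shape the dimer, also overlapped: Atp5k, Atp5j2 and Atp5l had log2 differences of 0.09, 0.06 and -0.01.

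The gene called higher carries an ATP synthase name but is not a subunit of that enzyme. By its symbol it is counted with the ATP synthase members and in their sum. Atp5sl (chromosome 7, 25619414 to 25625550), now named Dmac2 in RefSeq, encodes a factor for the assembly of the distal membrane arm of complex I. It was at 44.6, 36.5 and 39.7 TPM in WT and at 52.9, 66.2 and 56.1 TPM in DKO, all above WT, and rose by 0.52 (SE 0.11; limma, BH adjusted p = 0.0346). Among the 6 fits that left out 1 library the Atp5sl call held only without WT 4, with adjusted p up to 0.0943 in the others. Its namesake Atp5s, factor B of the ATP synthase literature, was at 27.8 ± 3.60 and 25.8 ± 1.02 TPM (limma, BH adjusted p = 0.629).

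**Figure D4:**
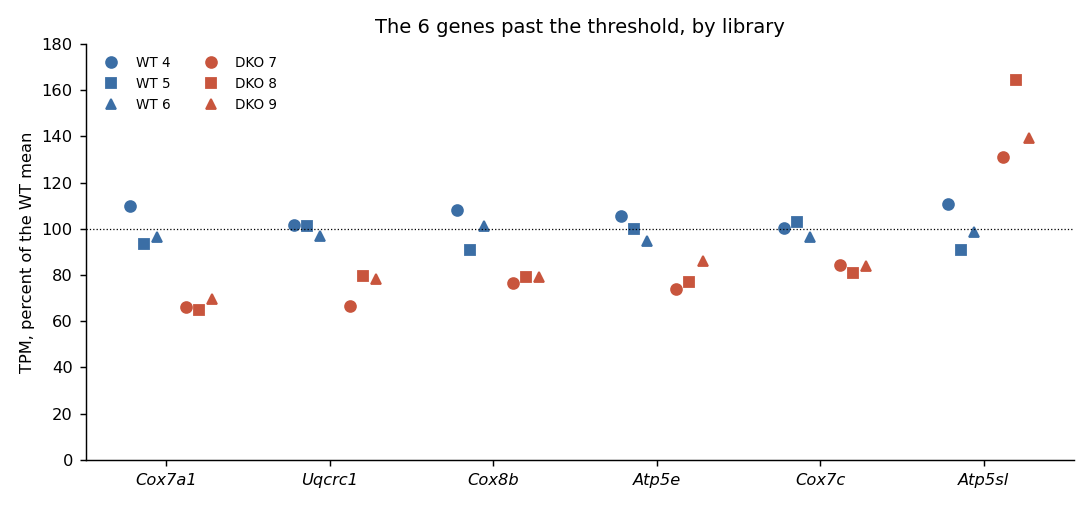
TPM of the 6 called genes in each library, as percent of the gene's WT mean (y axis, from 0; dotted line at 100). For Cox7a1, Uqcrc1, Cox8b, Atp5e and Cox7c all DKO points lie below all WT points, and for Atp5sl all lie above.

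Summed over the members of each enzyme, complex IV messages took 27721, 25800 and 25646 TPM in WT and 23445, 22340 and 22881 TPM in DKO, a change of -13.3% in the mean. Of that net fall, Cox7a1 alone made up 39.3% and Cox7a1 with Cox8b 55.2%. Without these 2 genes the complex IV sum was 19669 ± 669 TPM in WT and 18100 ± 573 TPM in DKO, a change of -7.98%. Complex III went from 9691 ± 199 to 9046 ± 79.2 TPM (a change of -6.65%), of which Uqcrc1 made up 48.0%. ATP synthase went from 28597 ± 809 to 26569 ± 616 TPM (a change of -7.09%), with Atp5b and Atp5g3 each at 26.0% of the change. No test was made on these sums; with quantile scaling the ATP synthase sum was 1.01 of WT, and those of complexes III and IV 0.966 and 0.919.

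**Figure D5:**
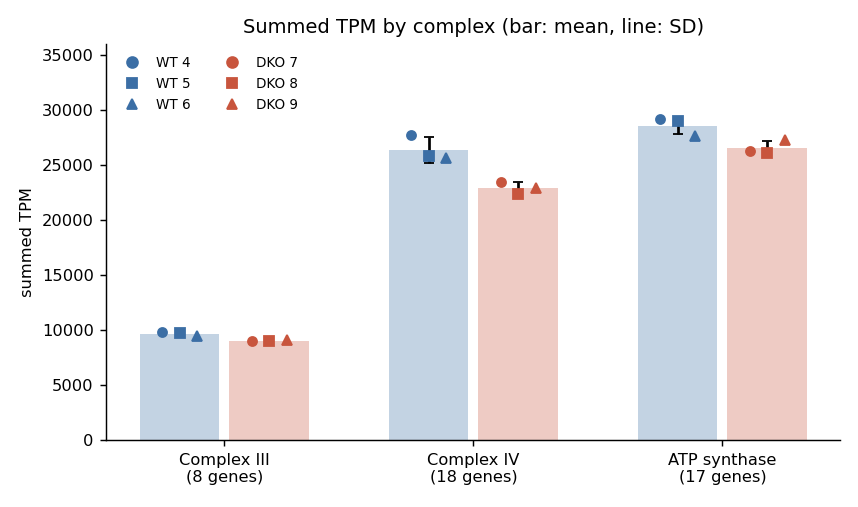
Summed TPM of the member genes of each complex (y axis, from 0). Bars are the mean of 3 libraries, lines the SD, points the libraries. DKO points lie below WT points in all 3 complexes, with the widest gap in complex IV (26389 against 22889 TPM on average).

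Tissue makeup was read from marker lists. Summed cardiomyocyte markers (14 of 14 in the table; 3 lower, 1 higher) lay between 84017 and 92082 TPM in WT and between 85861 and 87685 TPM in DKO, so the tissue label and the markers match. Of 11 fibroblast markers 6 were higher and 0 lower, summing to 1941 to 2018 TPM in WT and 2099 to 2636 TPM in DKO. Of 12 macrophage markers 6 were higher and 2 lower, with sums of 422 to 581 and 674 to 932 TPM. Among 10 endothelial markers 2 were lower and 0 higher (818 to 972 and 758 to 846 TPM in sum), and among 9 of smooth muscle and pericytes 2 were lower and 1 higher. The 6 erythroid genes summed to 6045 to 38462 TPM in WT and 1781 to 6764 TPM in DKO, with 1 lower and a median log2 difference of -1.87. Within that list, alpha and beta globin genes did not move together. In DKO 8 and DKO 9, Hba-a1 was at 1115 and 1407 TPM but Hbb-bs at 1.15 and 0.892 TPM. In DKO 7 they were at 3096 and 1690 TPM, and in WT at 2596 to 13606 and 1436 to 14182.5 TPM. Why was not tested, so the erythroid sum is not a measure of blood alone. White fat markers summed to 1043 to 1401 TPM in WT and, wholly below, 978 to 1040 TPM in DKO, with 0 of 5 called (limma). Nearly all of that sum was 1 gene, Fabp4, at 1247, 1040 and 1383 TPM in WT and 1039, 974 and 968 TPM in DKO. The other white fat genes were far lower, the highest value being Cfd at 36.8 TPM in DKO 9. The part of all these cell types in the lower values above was not tested. In bulk tissue, fewer cells of a type and less RNA per cell cannot be told apart. Cox8b and Cox7a1 are also high in brown fat and skeletal muscle. Of 4 brown fat genes tested, the lipid droplet genes Cidea (36.7 ± 5.56 to 19.2 ± 2.77 TPM) and Plin5 (127 ± 1.83 to 80.97 ± 7.26 TPM) were lower, as was Cox8b itself, and Dio2 was higher (1.41 ± 0.688 to 10.9 ± 1.504 TPM). Of that list, Ucp1 was listed at 0 in 5 libraries and at 1.16 TPM in WT 6, and Elovl3 was listed at 0 in all 6. Adrb3, Zic1 and Otop1, also brown fat genes of the list, were at 1.51 TPM or less in each library. The skeletal myosins Myh1, Myh2 and Myh4 were at 1.695 TPM or less in each library. The 12 skeletal muscle markers summed to 2571 to 3475 TPM in WT and, wholly below, 2203 to 2339 TPM in DKO. Nearly all of that sum was Ckm and Acta1. Ckm overlapped between the groups, at 2421, 2104 and 2352 TPM in WT and 2141, 2001 and 2175 TPM in DKO. Of the 6 skeletal markers tested 1 was lower, the actin Acta1, which heart muscle also expresses (1035, 464 and 547 TPM in WT, 150, 189 and 153 TPM in DKO). Among the other skeletal markers the highest value was Mylpf at 7.18 TPM in DKO 7. The part of other muscle or fat in the Cox7a1 and Cox8b values was not tested.

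How far subunits can be told apart by sequence depends on the annotation used for counting, which is not known. In GENCODE M21 transcripts, 35 of the 43 genes share no 31-base word with another row of the deposited table, but only 17 share none with any other gene. The largest such shares were those of Atp5l (69.7%), Uqcrb (54.3%) and Atp5h (46.9%), whose levels are uncertain if those other genes were counted. Cox7a1, Cox8b, Cox8a, Atp5e and Atp5sl share none with any gene. Besides Cox7c, only Atp5o shares over 10% with another row (18.4%), with the overlapping gene Donson, which was at 5.18 to 7.17 TPM.

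Genes that build these enzymes or work beside them were counted from lists. Of 28 complex IV assembly, translation and further subunit genes, 4 were lower and 0 higher, with a median log2 difference of -0.10. The 4 are Cox14 (212 ± 13.1 to 137 ± 6.02 TPM) and Coa5 (107 ± 7.11 to 70.4 ± 8.93 TPM), both assembly factors, Taco1 (71.6 ± 6.13 to 44.5 ± 5.16 TPM), which activates translation of the mitochondrial COX1 message, and Lrpprc (142 ± 7.98 to 102 ± 9.57 TPM), which stabilises mitochondrial messages. Their log2 differences were -0.63, -0.60, -0.68 and -0.48 (limma, BH adjusted p = 0.00523, 0.0196, 0.0146 and 0.0211). Of 8 complex III assembly and electron carrier genes 1 was lower, the assembly factor Uqcc1 (111 ± 10.8 to 80.3 ± 5.02 TPM; limma, BH adjusted p = 0.0249). Of 7 tested ATP synthase assembly, inhibitor and further subunit genes 0 were called (limma), with 2 at an unadjusted p under 0.05.

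Of 15 tested ATP export and cristae genes 2 were lower: the inner-membrane fusion protein Opa1 (128 ± 6.57 to 98.8 ± 3.53 TPM; limma, BH adjusted p = 0.0208) and the cristae junction subunit Apool (59.2 ± 5.07 to 45.2 ± 1.10 TPM; limma, BH adjusted p = 0.0342). Upstream in the chain, 10 of 37 complex I subunit genes were lower and 0 higher, with a median log2 difference of -0.21 and 24 wholly below WT. The 4 with the smallest p were Ndufb2, Ndufa6, Ndufs7 and Ndufab1, with log2 differences of -0.37, -0.35, -0.30 and -0.40 (limma, BH adjusted p = 0.0161, 0.0213, 0.0259 and 0.0266). Of 8 complex I assembly genes 0 were called (limma), with 3 at an unadjusted p under 0.05. Of 8 complex II genes 1, Sdha, was lower (985 ± 45.3 to 765 ± 27.6 TPM; limma, BH adjusted p = 0.0169). Among 12 regulators of mitochondrial biogenesis, 1 was higher, the oestrogen-related receptor gene Esrrb (15.9 ± 1.20 to 23.0 ± 0.411 TPM; limma, BH adjusted p = 0.0211). These counts stand beside the 4.22% and 6.51% called lower and higher among all genes tested and the 13.6% and 15.3% among those at 100 TPM or more. The shares lower among complex III assembly, complex IV assembly, complex II and ATP export and cristae genes are near the latter 13.6%. That of the complex I subunit genes, 10 of 37, is larger than either share. The lists were not limited to genes at 100 TPM or more, so neither share is matched to their levels. Whether the lists differ from each other was not tested.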

How the data were processed

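RNA-seq of total RNA from mouse heart gave 6 libraries (3 WT, 3 DKO; strand-specific, paired reads of 75 bases, per the series' design text and labels). The authors deposited 1 table of TPM values per gene and library; kallisto 0.44.0, bcl2fastq and the mm10 build are listed in the submitters' processing notes. The sources used here give neither the annotation nor the step from transcripts to genes. Each library has its own column. Groups follow titles and source names.

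After log2(TPM + 1), limma 3.58.1 in R 4.3.3 (lmFit, then trended eBayes) was run on the genes that reached 1 TPM in 3 or more libraries, with BH adjustment over all 14541 genes and a threshold of 0.05. This scale understates changes of low genes. Isoform ratios were compared with exact two-sided permutation tests (scipy 1.17.1). The members and lists were chosen with earlier results of these data known; quantile scaling of the ratios and the ratio-of-ratios comparison were added after the isoform ratios were seen. Values per library are given for called members, the isoform families and the most abundant member of each complex, and for Uqcrh, chosen after its values were seen. Up to 4 called genes of a pathway list are named, by smallest p. The fit was tested on simulated data. Alternatives were pseudocount 0.1, no filter or 5 TPM, 4 rescalings, array weights, untrended eBayes, replicate 7 as WT, a term for Y-linked transcripts, the Y-linked libraries alone, and each library left out. Positions, promoters (RefSeq, GRCm38.p6; all 43 members matched by symbol or synonym, 34 with a promoter) and transcript words (GENCODE M21) came from the mm10 assembly. Figures used matplotlib 3.10.9.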

Additional observations from a re-analysis of the deposited data

How the results depend on the processing

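Of 18 alternatives, among which the term for Y-linked transcripts and the Y-linked libraries alone estimate the same difference (DKO 9 alone against WT), the log2 difference of Cox7a1 stayed below 0 in all (-0.62 to -0.38) and its call held in 14. The calls of Uqcrc1, Atp5sl, Cox8b, Atp5e and Cox7c held in 11, 9, 7, 6 and 5, and none of them changed direction. Against 5 member genes lower, there were 2 with no filter, 3 with quantile scaling (where Cox7a1 had limma, BH adjusted p = 0.0741), 8 when rescaled without haemoglobin and ribosomal RNA, 10 without structural, short RNA and haemoglobin rows, 1 with eBayes without trend, and 1 to 3 with 1 library left out. There were 0 with replicate 7 as WT, with a term for Y-linked transcripts, and in the Y-linked libraries alone; limma then called 1, 92 and 29 genes in all. In both Y-linked fits the difference rests on DKO 9 alone, which is assumed to vary like the others, and Cox7a1 was at -0.52 in both. DKO 7 and DKO 8 enter only the fit with the Y-linked term, where they add to the spread. Member genes higher went from 1 to 0 in those 3 fits and without trend, and were 0 to 1 with 1 library left out. Where limma called 0 members, 6, 1 and 5 were lower at an unadjusted p under 0.05 with the Y-linked term, with replicate 7 as WT and in the Y-linked libraries alone. Pathway list genes, 18 lower and 1 higher, became 29 lower when rescaled without haemoglobin and ribosomal RNA, 30 lower and 2 higher without structural rows, 3 lower without trend, 0 and 0 with replicate 7 as WT, and 1 and 0 with the Y-linked term and in the Y-linked libraries alone; with array weights 2 were higher. With 1 library left out they were 2 to 7 lower and 0 to 1 higher. Fits without libraries have fewer samples; the other causes were not tested.

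Without 1 library the log2 ratio differed by -0.68 to -0.60 for Cox7a1 over Cox7a2, by -0.56 to -0.48 for Cox8b over Cox8a, by -0.17 to 0.0050 for Cox6a2 over Cox6a1 and by -0.56 to -0.17 for Cox4i2 over Cox4i1. With replicate 7 as WT the first 2 were -0.47 and -0.40, with quantile scaling (added after seeing the data) -0.46 and -0.38, with the Cox6a2 ratio at 0.06, and in the Y-linked libraries alone, with DKO 9 as the only DKO library, -0.59 and -0.46. DKO over WT of the sums was 0.911 for complex III with median-ratio scaling, and 0.966, 0.919 and 1.01 for complexes III, IV and V with quantile scaling. No paired analysis was possible because the groups share no replicate numbers. Depth is unknown, so its limit on low members such as Cox6b2 cannot be given.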
